A study of Mus musculus with 6 samples.

Results

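Surface and adaptor genes of cell adhesion and marrow retention other than integrins were followed in mouse B progenitor leukemia cells in which Pax5, a transcription factor that B cells need to form, was restored. The 7 genes, Nedd9, Sdc4, Cd44, Selplg, Cd69, Pecam1 and Cd24a, were taken by symbol from a table of 26286 genes, and all 7 were found. The study set 3 libraries from mice given doxycycline (dox) in the food for 3 days against 3 libraries from untreated mice. Per the labels, all 6 libraries came from 1 tri-transgenic leukemia, named A024, sorted from the marrow of leukemic Rag1 knockout mice, and each library stands for 1 mouse, per the series' design text. The sort took GFP-mid cells after dox and GFP-high cells from untreated mice, so drug, restored Pax5 and gate cannot be told apart. All mice carried the same leukemia, so the spread behind each p-value is that between mice and not between leukemias. The labels do not describe the transgenes. From what is generally known of this model, dox shuts off a hairpin RNA against Pax5 that is transcribed together with GFP, and a constitutively active Stat5 transgene drives the disease. Rag1 knockout hosts make no mature B or T cells of their own but do make NK and myeloid cells.

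Lymphoid progenitors stay in the marrow through contacts with stroma, matrix and endothelium, and they leave it along a gradient of sphingosine 1-phosphate (S1P), a lipid abundant in blood. Selectin ligands such as PSGL-1, the product of Selplg, make the first rolling contacts. Proteoglycans and hyaluronan receptors such as syndecan-4 and CD44 bind matrix, scaffold proteins such as Nedd9 pass adhesion signals on, and CD69 holds cells back by pulling an S1P receptor off the surface. Pecam1 and Cd24a encode surface glycoproteins that bind partners on neighbouring cells and change in amount as B cells mature.

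Libraries held 14185203 to 15612435 counts. Pax5 itself measured 227, 281 and 231 CPM (counts scaled to library size) in dox replicates 1, 2 and 3, against 154, 93.5 and 105 CPM in untreated replicates 1, 2 and 3, so the groups did not overlap. Of 7 B progenitor markers 7 were called higher, against 27.0% of all genes tested. Their sums were 6130.3 to 6525 CPM after dox and 3426 to 3539 CPM in untreated mice. Among them, Vpreb1, which encodes part of the surrogate light chain of B cell progenitors, was abundant in every library, at 1335, 1459.8 and 1364 CPM in dox replicates 1, 2 and 3, against 806, 778 and 795 CPM in untreated replicates 1, 2 and 3. Markers of other marrow cells were present at lower levels. Of 10 neutrophil markers, led by S100a9 and S100a8, 9 were tested and 8 called higher after dox, against 27.0% of all genes tested. The sum of all 10 was 547, 117 and 261 CPM in dox replicates 1, 2 and 3, against 118, 92.0 and 108 CPM in untreated replicates 1, 2 and 3. Of 10 macrophage and monocyte markers, led by Lyz2 and Vcam1, 9 were tested and 8 called higher, against the same 27.0%. The sums of all 10 were 49.0 to 110 CPM after dox and 19.4 to 28.1 CPM in untreated mice. The 9 endothelial markers, led by Cdh5 and Plvap, summed to at most 1.54 CPM in any library, with Tie1 at 0 counts throughout. The 8 megakaryocyte and platelet markers, led by Gp1ba and Itga2b, summed to at most 1.51 CPM, with Gp6 at 0. The 9 T and NK cell markers, led by Klrb1c and Trac, summed to at most 9.82 CPM, with Cd3e and Cd8a at 0. The sums of 9 erythroid markers, led by Tfrc and Hbb-b1, ranged from 395 to 511 CPM after dox and from 375 to 577 CPM in untreated mice. Tfrc, a gene of dividing cells in general, made up 369 to 571 CPM of these sums, and no other gene of that list passed 2.96 CPM. The sums of 7 plasma cell markers, led by Mzb1 and Xbp1, ranged from 842 to 913 CPM after dox and from 806 to 974 CPM in untreated mice. Mzb1 made up 379 to 572 CPM and Xbp1 175 to 238 CPM of these sums. Single markers moved in both directions. Of 6 tested, 3 were called higher and 2, Sdc1 among them, lower, against 27.0% and 26.6% of all genes tested.

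After dox, 5 of the genes rose, 1 fell, and 1 did not pass the test. Cd69, Cd44, Sdc4, Nedd9 and Pecam1 rose, Cd24a fell, and Selplg was not called. Calls rest on edgeR's quasi-likelihood test with Benjamini-Hochberg adjustment over all 12275 genes that passed a filter on low counts, at an adjusted p under 0.05. All 7 passed that filter. Of all genes tested, 53.6% were called, 27.0% higher and 26.6% lower, so that a call by itself was common among these libraries. The median log2 fold change (dox over untreated) was 0.90 over the 7 genes and 0.01 over all genes tested. Groups did not overlap for 6 of the 7 genes, 5 higher and 1 lower, against 62.2% of all genes tested, 31.2% higher and 31.0% lower. Because the samples are bulk RNA, fewer cells of a type and less RNA per cell cannot be told apart.

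**Figure D1:**
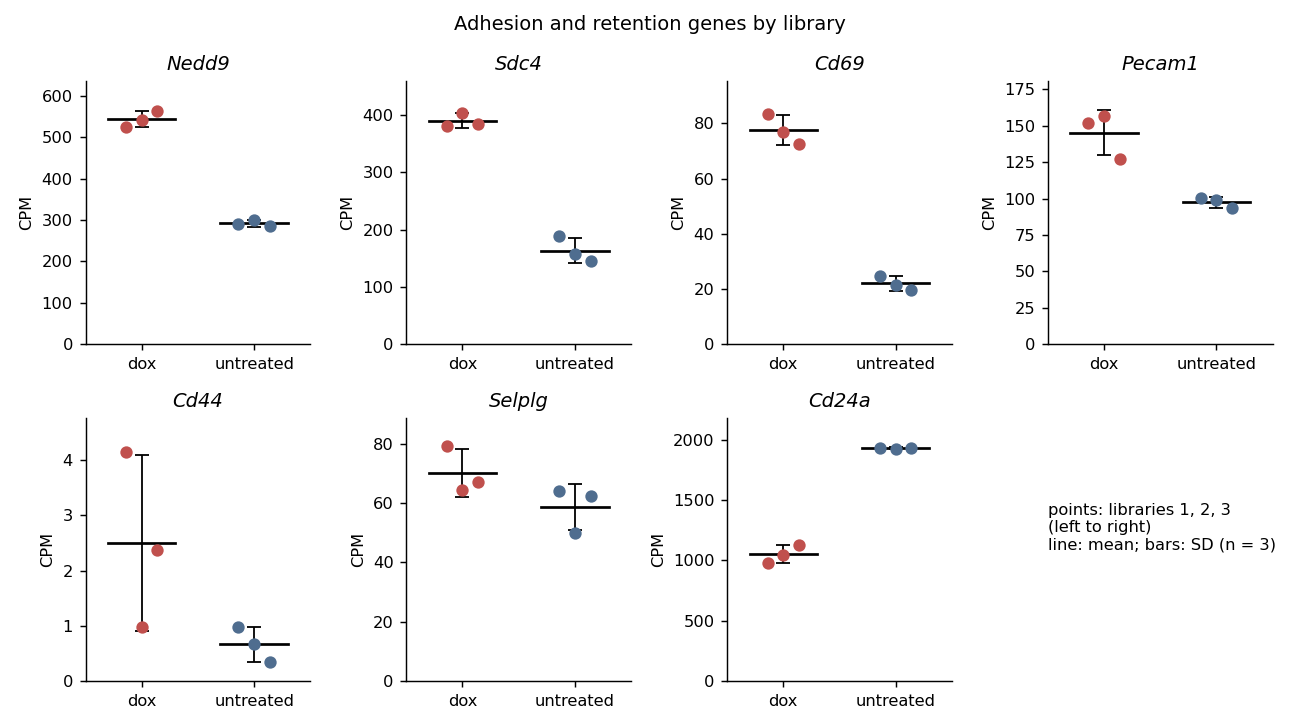
Normalised counts (CPM, vertical axes from 0) of the 7 genes in each library, with dox left of untreated in each panel, the mean as a line and the SD as bars (n = 3). Dox libraries lie above untreated ones for Nedd9, Sdc4, Cd69, Pecam1 and narrowly Selplg, below them for Cd24a, and overlap with them for Cd44.

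The promoters of Sdc4 and Nedd9 are shown because both genes are abundant and both rose in every dox library. RefSeq sequences (build GRCm38.p6, 250 bases before to 50 after the annotated start) matched 3 of the 7 genes, Sdc4, Nedd9 and Cd44. The build of the deposited counts, mm9, is another one. Both sequences lie on the minus strand and are written in the direction of transcription, Sdc4 from chr2:164443139-164443438 and Nedd9 from chr13:41358952-41359251. Capitals mark matches on either strand to any of 5 motifs searched, the GC box GGGCGG, a kappaB-like motif (GGG, any 3 bases, TTCC), an EBF-like motif (TCCC, any 2 bases, GGGA), the octamer ATGCAAAT and the TATA motif TATAAA.
Sdc4: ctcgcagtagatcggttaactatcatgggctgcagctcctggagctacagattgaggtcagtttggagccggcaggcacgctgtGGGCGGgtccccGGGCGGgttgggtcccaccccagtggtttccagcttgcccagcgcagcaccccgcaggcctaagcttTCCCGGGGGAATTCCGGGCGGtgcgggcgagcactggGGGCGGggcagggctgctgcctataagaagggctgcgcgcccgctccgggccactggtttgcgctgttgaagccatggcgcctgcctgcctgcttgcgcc
Nedd9: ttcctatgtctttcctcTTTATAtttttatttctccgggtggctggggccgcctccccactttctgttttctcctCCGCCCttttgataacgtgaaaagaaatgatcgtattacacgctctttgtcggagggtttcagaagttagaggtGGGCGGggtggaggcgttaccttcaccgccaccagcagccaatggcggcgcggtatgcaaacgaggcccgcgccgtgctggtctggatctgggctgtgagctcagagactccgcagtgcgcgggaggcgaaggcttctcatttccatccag

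The Sdc4 window was 67.7% G and C and held 22 CG dinucleotides, and the Nedd9 window was 55.7% G and C with 21, against a median of 52.7% G and C over 32851 promoters in the table. In Sdc4, the EBF-like match TCCCGGGGGA overlapped the kappaB-like match GGGGAATTCC, and a GC box followed directly. Across all promoters of the same length, 35.7% held the GC box, 5.56% the kappaB-like motif, 0.904% the EBF-like motif, 1.74% the octamer and 13.6% the TATA motif. The Nedd9 window held GC boxes on both strands and 1 TATA match far upstream of the start. These matches describe letters in the windows and not sites in use.

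Nedd9 (Entrez Gene 18003) encodes HEF1, a Cas family scaffold that is phosphorylated when integrins or antigen receptors engage and that couples them to cell movement. It measured 525, 542 and 564 CPM in dox replicates 1, 2 and 3, against 289, 300.4 and 286 CPM in untreated replicates 1, 2 and 3. Both groups were tight and far apart. The mean was 544 ± 19.6 CPM after dox and 292 ± 7.57 CPM in untreated mice (SD, n = 3 each), a 1.86-fold rise (log2 fold change 0.90, SE 0.07, edgeR adjusted p = 1.09e-05). In the reference annotation (GRCm38), 4 predicted genes overlap Nedd9 on the other strand and 1 on the same strand. Strandedness of the counting is not given in the sources used here, so their reads cannot be told apart from those of Nedd9.

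Among the 4 Cas family genes, Nedd9 was the dominant transcript per length. Levels per length are given as CPM per kilobase of gene length (RPKM). Nedd9 held 91.5 ± 0.805% of the family's summed RPKM after dox and 81.2 ± 0.869% in untreated mice (SD, n = 3 each). Cass4, a family member of blood cells, made up the rest. It fell to 47.3 ± 3.39 CPM after dox, against 63.8 ± 4.99 CPM in untreated mice (log2 fold change −0.43, SE 0.09). Bcar1 and Efs were at 0 counts in every library. Of 17 genes of Cas family adaptors and their partners found in the table, 12 were tested, 4 rose, 1 (Cass4) fell and 7 were not called, against 27.0% higher and 26.6% lower over all genes tested. The median log2 fold change was 0.06 over the 12 genes and 0.10 without untreated replicate 1. Ptk2b, which encodes the Cas kinase Pyk2, rose to 407 ± 40.1 CPM, against 240.4 ± 11.3 CPM in untreated mice (log2 fold change 0.76, SE 0.08). Bcar3, a binding partner of Cas proteins, rose to 8.60 ± 1.41 CPM after dox, against 1.69 ± 0.358 CPM in untreated mice (log2 fold change 2.34, SE 0.22). The guanine nucleotide exchange factor genes Dock2 and Rapgef1 rose by 0.34 (SE 0.09) and 0.23 (SE 0.06). The kinase gene Src, at log2 fold change −0.88, was not called (edgeR adjusted p = 0.0833), but it was called lower at −1.46 without dox replicate 2 (adjusted p = 0.00245), and was −0.52 without untreated replicate 2 (adjusted p = 0.314). Rapgef1 was not called without untreated replicate 3 (edgeR adjusted p = 0.0555) or without dox replicate 1 (adjusted p = 0.0571).

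Sdc4 (Entrez Gene 20971) encodes syndecan-4, a transmembrane heparan sulfate proteoglycan that acts beside integrins in focal adhesions. It measured 379.8, 404 and 385 CPM in dox replicates 1, 2 and 3, against 189, 157 and 145 CPM in untreated replicates 1, 2 and 3. The highest untreated library held less than the lowest dox library by a wide margin. The mean was 389.6 ± 12.9 CPM after dox and 163 ± 22.5 CPM in untreated mice (SD, n = 3 each), a 2.38-fold rise (log2 fold change 1.25, SE 0.10, edgeR adjusted p = 1.44e-05). No other gene overlaps Sdc4 in the reference annotation.

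The other syndecans did not follow Sdc4 as a block. Sdc1, best known from plasma cells and epithelia, fell to 17.2 ± 2.33 CPM after dox, against 50.3 ± 3.88 CPM in untreated mice (log2 fold change −1.55, SE 0.11). Sdc3, scarce in both groups, rose to 4.74 ± 1.06 CPM after dox, against 0.689 ± 0.434 CPM in untreated mice (log2 fold change 2.78, SE 0.38, and 3.41 without untreated replicate 1). Sdc2 was at or near 0 counts. Of the summed syndecan RPKM, Sdc4 held 96.0 ± 0.64% after dox and 79.9 ± 2.15% in untreated mice, and Sdc1 held 3.42 ± 0.513% after dox and 19.9 ± 2.21% in untreated mice (SD, n = 3 each). Among 19 genes of the syndecan and heparan sulfate list, 14 were tested, 5 rose (Sdc3, Sdcbp, Extl3, Ndst2 and Xylt2), 3 fell (Sdc1, Ext1 and Hs2st1) and 6 were not called. Over all genes tested, 27.0% were higher and 26.6% lower. The list's median log2 fold change was 0.15 over the genes tested (0.06 without untreated replicate 2 and 0.03 without dox replicate 1). Sdcbp encodes syntenin, which binds syndecan tails, and rose by 0.50 (SE 0.09). Ext1, a subunit of the polymerase that extends heparan sulfate chains, changed by −1.43 (SE 0.14), to 25.3 ± 4.84 CPM after dox, against 68.2 ± 8.67 CPM in untreated mice. Xylt2 lost its call without untreated replicate 2, untreated replicate 3 or dox replicate 1 (edgeR adjusted p = 0.0828, 0.0817 and 0.0855).

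Cd69 (Entrez Gene 12515) encodes a C-type lectin-like surface protein that appears early on activated lymphocytes. It measured 83.4, 76.7 and 72.5 CPM in dox replicates 1, 2 and 3, against 24.9, 21.5 and 19.6 CPM in untreated replicates 1, 2 and 3. Every dox library lay far above the highest untreated one. The mean was 77.5 ± 5.53 CPM after dox and 22.0 ± 2.66 CPM in untreated mice (SD, n = 3 each), a 3.53-fold rise (log2 fold change 1.82, SE 0.10, edgeR adjusted p = 3.88e-06). Among all genes tested, 97.0% had a smaller absolute log2 fold change. T and NK cell markers summed to at most 9.82 CPM in any library. In the neutrophil list and in the macrophage list, 8 of 9 markers tested were called higher, against 27.0% of all genes tested. In both groups Cd69 ran replicate 1 above 2 above 3, which was not the library order of the neutrophil markers. Among the macrophage markers, Csf1r, Adgre1 and C1qc had the Cd69 order after dox only, and Vcam1 and C1qb in untreated mice only. The part of other cells in the Cd69 level was not tested.

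Of the tested genes of the S1P list, which also holds Klf2 and Gnai2, 6 of 12 rose, against 27.0% of all genes. With a library left out, 4 to 6 rose. CD69 protein binds the receptor S1PR1 and takes it off the surface, and the transcription factor KLF2 drives S1pr1 transcription in lymphocytes. S1pr1 measured 102 ± 23.3 CPM after dox and 38.6 ± 5.65 CPM in untreated mice (SD, n = 3 each), with 88.8, 129 and 88.4 CPM in dox replicates 1, 2 and 3, against 39.3, 32.6 and 43.8 CPM in untreated replicates 1, 2 and 3 (log2 fold change 1.40, SE 0.16, edgeR adjusted p = 0.000117). S1pr4, another S1P receptor of blood cells, measured 120 ± 5.32 CPM after dox and 39.4 ± 6.48 CPM in untreated mice (log2 fold change 1.61, SE 0.11). Klf2 measured 70.5 ± 8.38 CPM after dox and 9.01 ± 1.29 CPM in untreated mice (log2 fold change 2.97, SE 0.13). Transcripts for an egress receptor and for the lectin that removes it were both higher after dox. Of 14 genes in the S1P list, 12 were tested. Beside the 6 that rose, 1 (Sgpp1, a phosphatase of S1P, −0.36) fell and 5 were not called, with a median log2 fold change of 0.55 over the genes tested. Sgpl1, the lyase that breaks S1P down, rose by 0.90 (SE 0.10), and the G protein gene Gnai2 by 0.20 (SE 0.06). The transporter gene Spns2 measured 3.35 ± 2.06 CPM after dox and 1.48 ± 0.37 CPM in untreated mice (log2 fold change 1.17, SE 0.43). Without dox replicate 2 that change was 0.55. Spns2 lost its call without any untreated library or dox replicate 2 (edgeR adjusted p between 0.0802 and 0.179), and Gnai2 without any untreated library or dox replicate 1 (between 0.0648 and 0.0892). S1pr3, at −0.46, was not called (edgeR adjusted p = 0.105), and it was called lower at −0.82 without dox replicate 2 (adjusted p = 5.83e-05), which brought the number lower to 2. Without dox replicate 3 it was −0.28 (adjusted p = 0.285).

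Receptors for other attractants rose where they were called. Of 10 chemoattractant receptor genes, 4 were tested, 3 rose, 0 fell (0 also at an unadjusted edgeR p under 0.05 and with the DESeq2 test) and Ccr7 was not called. The shares over all genes tested were 27.0% higher and 26.6% lower. Cxcr4, the receptor that keeps B progenitors near CXCL12 in the marrow, measured 414 ± 43.0 CPM after dox and 295 ± 26.1 CPM in untreated mice (SD, n = 3 each, log2 fold change 0.49, SE 0.10). Cxcr5, a receptor of mature B cells for follicles, rose by 0.73 (SE 0.10) and Ptger4, a prostaglandin receptor gene, by 0.91 (SE 0.11). The median log2 fold change was 0.61 over the 4 genes tested.

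**Figure D2:**
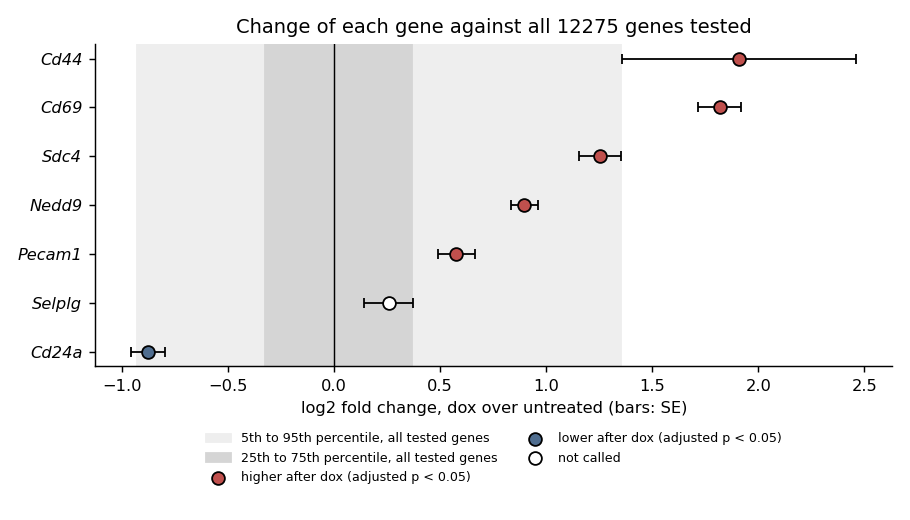
Log2 fold change of each gene, dox over untreated (horizontal axis, bars are SE), over bands that span the 5th to 95th and the 25th to 75th percentile of all 12275 genes tested. Cd44 (1.91) and Cd69 (1.82) lie beyond the 95th percentile of 1.35, Cd24a (−0.88) lies just inside the 5th percentile of −0.93, and Selplg (0.26) lies within the middle band.

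Pecam1 (Entrez Gene 18613) encodes CD31, an immunoglobulin superfamily protein that binds itself on neighbouring cells and carries inhibitory tyrosine motifs. It measured 152, 157 and 127 CPM in dox replicates 1, 2 and 3, against 100.2, 98.8 and 93.4 CPM in untreated replicates 1, 2 and 3. The dox libraries were all higher, with replicate 3 nearest to the untreated ones. The mean was 145 ± 15.6 CPM after dox and 97.5 ± 3.59 CPM in untreated mice (SD, n = 3 each), a 1.49-fold rise (log2 fold change 0.58, SE 0.09, edgeR adjusted p = 0.000513). Endothelial cells, platelets, neutrophils and monocytes also carry CD31. The endothelial markers summed to at most 1.54 CPM and the platelet markers to at most 1.51 CPM in any library. The neutrophil markers summed to 117 to 547 CPM after dox and 92.0 to 118 CPM in untreated mice. The macrophage markers summed to 49.0 to 110 CPM after dox and 19.4 to 28.1 CPM in untreated mice. In the neutrophil list and in the macrophage list, 8 of 9 markers tested were called higher, against 27.0% of all genes tested. Pecam1 did not follow the library order of the neutrophil markers in either group, and its highest dox library was replicate 2, where their sum was 117 CPM. Among the macrophage markers tested, C1qa, Cd68 and Mertk had the order of Pecam1 after dox, Vcam1 in untreated mice, and C1qb in both groups. The others tested had it in neither group. The part of these cells in the Pecam1 level was not tested.

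Cd24a (Entrez Gene 12484) encodes CD24, also called heat stable antigen, a small glycoprotein on a lipid anchor that marks early B cells. It measured 981, 1042 and 1128 CPM in dox replicates 1, 2 and 3, against 1933, 1919.6 and 1932 CPM in untreated replicates 1, 2 and 3. The untreated libraries were nearly identical and all dox libraries lay far below them. The mean fell to 1050.2 ± 73.8 CPM after dox, against 1928 ± 7.62 CPM in untreated mice (SD, n = 3 each), or 1.84-fold lower (log2 fold change −0.88, SE 0.08, edgeR adjusted p = 3.19e-05). Cd24a was thus the one gene of the 7 to fall, and it was also the most abundant. Neutrophils and erythroid cells carry CD24 too. Of 9 neutrophil markers tested 8 were called higher, and of 4 erythroid markers tested 0 were called (edgeR). Over all genes tested, 27.0% were higher and 26.6% lower. Cd24a did not follow the library order of the neutrophil markers in the dox group. In untreated mice its order was theirs, but its libraries there lay too close together for the order to be read. The part of these cells in the Cd24a level was not tested. Reads of near-identical copies of Cd24a in the genome, if any were counted with it, cannot be told apart here.

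All 10 genes of the list of PECAM-1 and CD24 partners were tested and called, 8 higher and 2 lower. Of all genes tested, 53.6% were called, 27.0% higher and 26.6% lower. The median log2 fold change of the list was 1.22. Siglecg, a lectin receptor of B cells that binds CD24, measured 359 ± 91.3 CPM after dox and 66.5 ± 7.15 CPM in untreated mice (SD, n = 3 each, log2 fold change 2.43, SE 0.17), opposite in direction to Cd24a. The kinase gene Lyn measured 354 ± 21.1 CPM after dox and 112 ± 3.55 CPM in untreated mice (log2 fold change 1.66, SE 0.07). Of the phosphatases that bind inhibitory tyrosine motifs, Ptpn6 rose by 0.45 (SE 0.06) and Inpp5d by 0.51 (SE 0.10), whereas Ptpn11, which encodes SHP-2, the main partner of PECAM-1, changed by −0.27 (SE 0.06). Hmgb1, a nuclear protein gene whose product binds CD24 outside cells, changed by −0.69 (SE 0.09). Cd38, an ectoenzyme that binds PECAM-1, measured 140.1, 72.0 and 95.01 CPM in dox replicates 1, 2 and 3, against 31.7, 13.4 and 21.0 CPM in untreated replicates 1, 2 and 3 (log2 fold change 2.22, SE 0.31). Cd177, itself a neutrophil protein that binds PECAM-1, measured 16.1, 4.18 and 6.91 CPM in dox replicates 1, 2 and 3, against 3.08, 2.55 and 2.92 CPM in untreated replicates 1, 2 and 3. Its log2 fold change was 1.67 (SE 0.44) and 0.96 without dox replicate 1 (edgeR adjusted p = 0.0154), and the median of the list was 0.80 without that library. Cd38 and Cd177 both followed the library order of the neutrophil markers within each group, and the part of those cells in their rise was not tested. The share of all genes with that order was not computed. L1cam and the kinase gene Fgr, both scarce, rose by 1.73 (SE 0.32) and 0.78 (SE 0.27), and Fgr kept its call only when dox replicate 2 was the library left out (edgeR adjusted p of 0.0648 to 0.119 without each of the others).

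Cd44 (Entrez Gene 12505), the hyaluronan receptor, was close to absent. Counts were 63, 14 and 37 in dox replicates 1, 2 and 3, against 14, 10 and 5 in untreated replicates 1, 2 and 3, which is 4.15, 0.975 and 2.37 CPM against 0.979, 0.671 and 0.34 CPM. Dox replicate 2 lay at the level of untreated replicate 1, so the groups overlapped. The mean was 2.50 ± 1.59 CPM after dox and 0.663 ± 0.319 CPM in untreated mice (SD, n = 3 each, log2 fold change 1.91, SE 0.55, edgeR adjusted p = 0.0162), and 7.56% of the genes tested had a lower level. The call was lost without dox replicate 1 (log2 fold change 1.34, edgeR adjusted p = 0.0611) and without untreated replicate 3 (1.59, adjusted p = 0.0631). For its CPM values an exact permutation test, two-sided (n = 3 each), gave p = 0.2, where 3 libraries against 3 allow no less than 0.1, a value that each of the other 6 genes reached. Neutrophils carry CD44, and within the dox group Cd44 followed the order of the summed neutrophil markers, replicate 1 above 3 above 2, while the order in untreated mice was another one. The part of neutrophil RNA in the Cd44 counts was not tested. In the reference annotation, 1 small nuclear RNA gene overlaps Cd44 on the other strand.

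**Figure D3:**
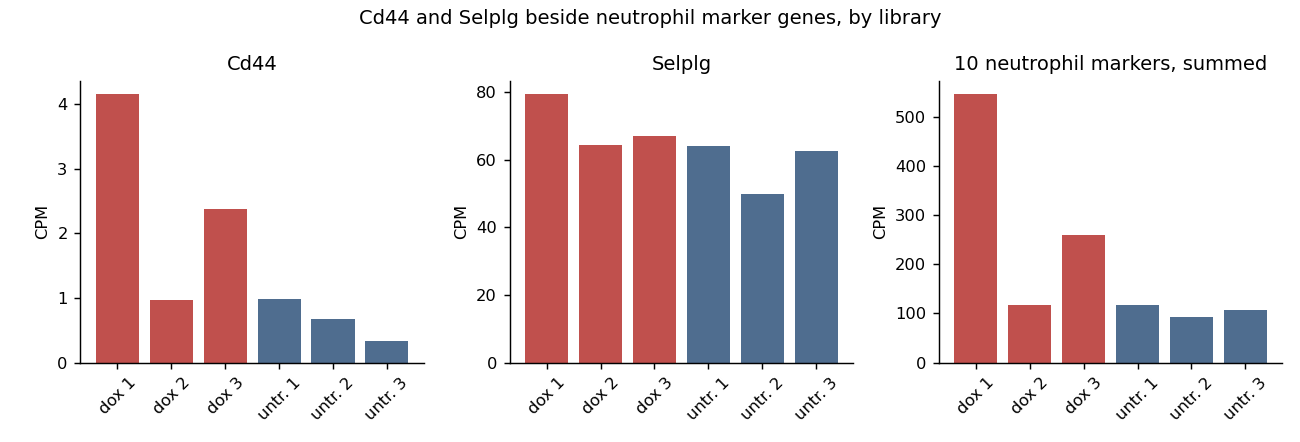
Cd44, Selplg and the sum of 10 neutrophil marker genes in each library (CPM, vertical axes from 0, dox bars left of untreated bars). Dox replicate 1 is the highest bar in all panels, at 4.15 CPM for Cd44, 79.3 CPM for Selplg and 547 CPM for the neutrophil sum.

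Among the ligands and linkers of CD44, Msn rose and Hmmr, Ezr and Hyal2 fell. Of 14 genes, 9 were tested, 1 rose, 3 fell and 5 were not called, against 27.0% higher and 26.6% lower over all genes tested. The median log2 fold change was −0.08 over the 9 genes, −0.03 without dox replicate 2 and −0.12 without dox replicate 3. Msn encodes moesin and Ezr encodes ezrin, which both tie CD44, PSGL-1 and other receptors to actin. Msn measured 1245 ± 32.1 CPM after dox and 921 ± 45.4 CPM in untreated mice, and Ezr 210.3 ± 5.09 CPM after dox and 295 ± 33.8 CPM in untreated mice (SD, n = 3 each, log2 fold changes 0.44, SE 0.07, and −0.49, SE 0.09). Hmmr, another hyaluronan receptor that also serves the mitotic spindle, changed by −0.98 (SE 0.17). Hyal2, a hyaluronidase gene, changed by −0.38 (SE 0.13) and lost its call without untreated replicate 1, untreated replicate 3 or dox replicate 1 (edgeR adjusted p = 0.111, 0.088 and 0.117).

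Selplg (Entrez Gene 20345) encodes PSGL-1, the selectin ligand of leukocytes. It measured 79.3, 64.3 and 67.0 CPM in dox replicates 1, 2 and 3, against 64.0, 49.9 and 62.5 CPM in untreated replicates 1, 2 and 3. The lowest dox library lay barely above the highest untreated one. The mean was 70.2 ± 7.98 CPM after dox and 58.8 ± 7.71 CPM in untreated mice (SD, n = 3 each). The ratio was 1.19, with a 95% interval of 0.998 to 1.43 (log2 fold change 0.26, SE 0.12, edgeR adjusted p = 0.0882), so no difference was called, and a rise of up to 1.43-fold lies within the interval. Without dox replicate 2 the gene was called higher (log2 fold change 0.32, edgeR adjusted p = 0.0467). It was 0.15 without untreated replicate 2 (adjusted p = 0.295) and 0.16 without dox replicate 1 (adjusted p = 0.289). With the replicate block it was called at 0.26 (adjusted p = 0.0203). Neutrophils and monocytes carry PSGL-1, and Selplg followed the library order of the neutrophil markers in both groups. Their part in its level was not tested.

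Genes of selectins and of PSGL-1 glycosylation and sulfation moved in both directions. Of 16 genes, 13 were tested, 7 rose, 2 fell and 4 were not called, against 27.0% higher and 26.6% lower over all genes tested. The median log2 fold change was 0.26 over the 13 genes (0.63 without untreated replicate 1, 0.15 without untreated replicate 2 and 0.47 without dox replicate 2). B4galt1, a galactosyltransferase, measured 592 ± 23.6 CPM after dox and 227 ± 8.22 CPM in untreated mice (SD, n = 3 each, log2 fold change 1.38, SE 0.07). St3gal1, which caps core 1 chains with sialic acid, measured 98.3 ± 22.8 CPM after dox and 25.5 ± 5.64 CPM in untreated mice (log2 fold change 1.94, SE 0.19). C1galt1, which starts core 1 chains, rose by 0.65 (SE 0.07), and Gcnt1, which branches them into core 2, by 0.74 (SE 0.17). The tyrosine sulfotransferase gene Tpst2 rose by 0.77 (SE 0.10). St3gal4, a sialyltransferase of selectin ligands, fell to 9.45 ± 0.728 CPM after dox, against 20.8 ± 1.43 CPM in untreated mice (log2 fold change −1.14, SE 0.11). The fucosyltransferase gene Fut4 changed by −0.75 (SE 0.25), and Fut7, the main fucosyltransferase of leukocyte selectin ligands, was at 0 counts in 5 of 6 libraries. B3gnt3 (log2 fold change 1.36) and Tpst1 (0.26) each lost the call without 5 of the 6 libraries, keeping it only without dox replicate 2 (edgeR adjusted p from 0.0538 to 0.0855 for B3gnt3 and from 0.0765 to 0.187 for Tpst1 without the others). Fut4 lost it without untreated replicate 2, untreated replicate 3 or dox replicate 3 (adjusted p = 0.0796, 0.112 and 0.085), which left 1 gene lower.

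Genes of proteases that shed adhesion receptors from the cell surface, and of their regulators, moved in both directions. Of 13 genes, 9 were tested, 5 rose, 1 fell and 3 were not called, against 27.0% higher and 26.6% lower over all genes tested. The median log2 fold change was 0.47 over the 9 genes. Adam10, a sheddase of CD44 and many other receptors, measured 489 ± 28.5 CPM after dox and 261 ± 14.9 CPM in untreated mice (SD, n = 3 each, log2 fold change 0.91, SE 0.08). Mmp14, a membrane metalloprotease, fell to 122 ± 25.9 CPM after dox, against 236 ± 28.0 CPM in untreated mice (log2 fold change −0.96, SE 0.15). Rhbdf2, a cofactor of the sheddase ADAM17, rose by 0.65 (SE 0.15) and Adam17 by 0.23 (SE 0.07). At low levels, Mmp9 rose by 1.33 (SE 0.50) and Timp2, a regulator and not a protease, by 1.89 (SE 0.64). Timp2 lost its call without untreated replicate 2, untreated replicate 3, dox replicate 1 or dox replicate 3 (edgeR adjusted p = 0.054, 0.0818, 0.0792 and 0.0604). The number higher was 2 (Adam10 and Rhbdf2) without untreated replicate 2 or untreated replicate 3, and 3 without dox replicate 1 or dox replicate 3. Mmp9, which neutrophils make, measured 16.1, 3.69 and 5.76 CPM in dox replicates 1, 2 and 3, against 4.54, 2.48 and 3.19 CPM in untreated replicates 1, 2 and 3, the library order of the neutrophil markers. Without dox replicate 1 its log2 fold change was 0.48 (edgeR adjusted p = 0.232), and it was not called without untreated replicate 1, 2 or 3 either (adjusted p = 0.061, 0.143 and 0.12).

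**Figure D4:**
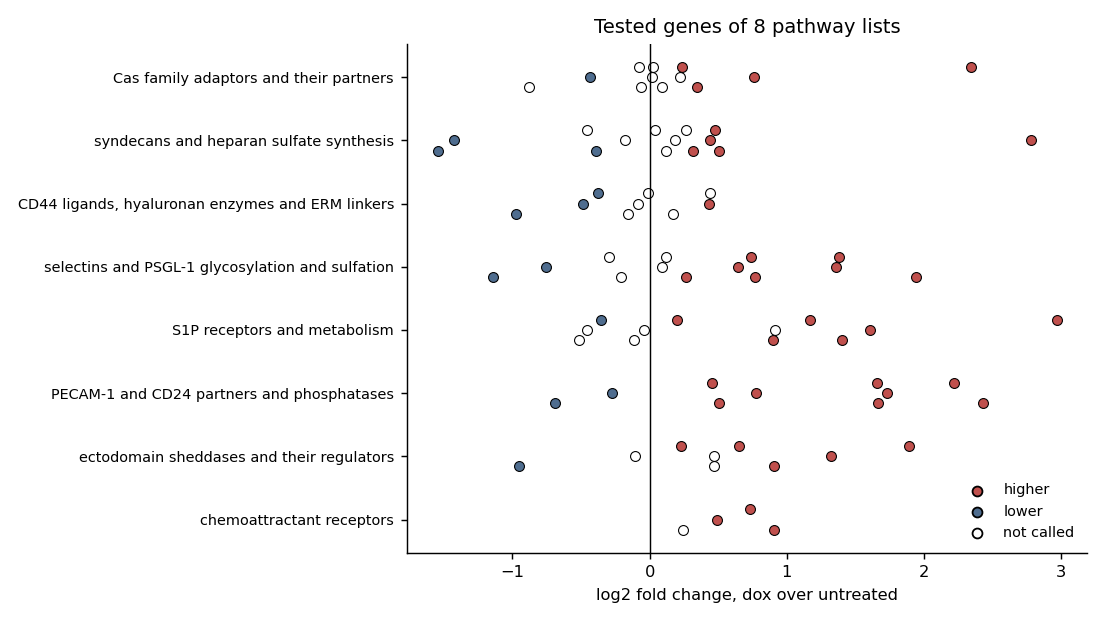
Log2 fold change, dox over untreated (horizontal axis), of the tested genes of 8 lists of pathway genes, 1 point per gene, coloured by call. Of 83 points, 39 are higher, 13 are lower and the rest are not called, against 27.0% higher and 26.6% lower over all genes tested. Klf2 (2.97) lies farthest to the right and Sdc1 (−1.55) farthest to the left.

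Per length, Cd24a stood far above the other genes in both groups, and Cd44 far below. In dox libraries the order was Cd24a (578 ± 40.6 RPKM), Sdc4 (158 ± 5.22 RPKM), Nedd9 (115 ± 4.15 RPKM), Cd69 (47.9 ± 3.42 RPKM), Pecam1 (44.0 ± 4.73 RPKM), Selplg (27.0 ± 3.07 RPKM) and Cd44 (0.442 ± 0.281 RPKM). In that order the ranges of Cd69 and Pecam1 overlapped, and those of all other neighbours were apart. In untreated libraries the order was Cd24a (1062 ± 4.2 RPKM), Sdc4 (66.4 ± 9.16 RPKM), Nedd9 (61.9 ± 1.61 RPKM), Pecam1 (29.5 ± 1.09 RPKM), Selplg (22.6 ± 2.96 RPKM), Cd69 (13.6 ± 1.64 RPKM) and Cd44 (0.117 ± 0.0565 RPKM). There, Sdc4 and Nedd9 overlapped. Cd69 was the gene that changed place, above Pecam1 and Selplg in mean after dox and below both in untreated mice.

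**Figure D5:**
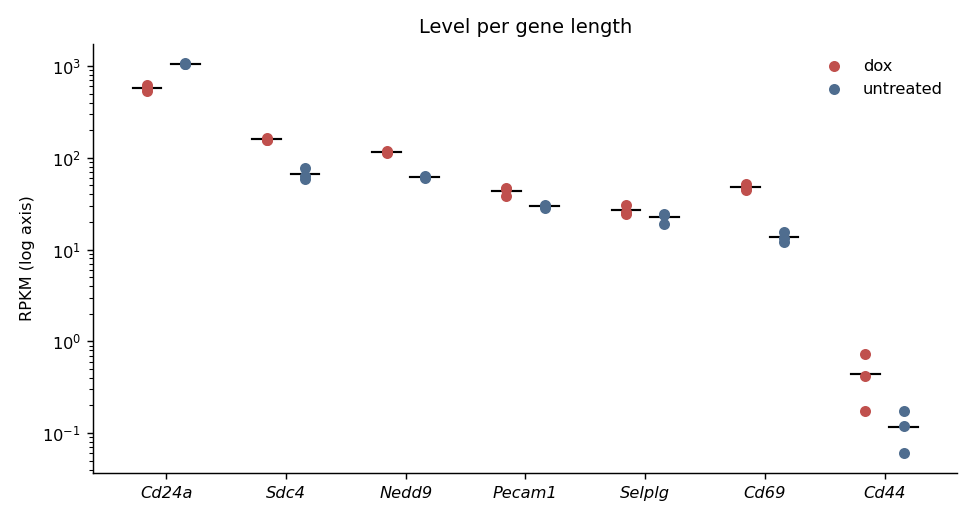
Level of each gene per length (RPKM, log axis) in each library, dox points left of untreated points, with the mean as a line. Cd24a leads in both groups (578 RPKM after dox and 1062 RPKM in untreated mice), and Cd44 is last (0.442 and 0.117 RPKM).

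The genes whose profile over the 6 libraries was most like each of the 7 were found by the root mean square difference of log2 CPM, after each gene was centred on its own mean, among 10110 genes that averaged 5 CPM or more. Nedd9 lay nearest to Pacrgl (0.03) and Gsn (0.03), Sdc4 to Arid5a (0.05) and Inafm2 (0.05), and Cd69 to Mief2 (0.08) and Ighv2-4 (0.09). Pecam1 lay nearest to Nfkbia (0.03) and C130046K22Rik (0.03), Cd24a to 2700038G22Rik (0.02) and Pus1 (0.03), and Selplg to Mus81 (0.02) and Casp6 (0.05). Profiles within 0.1 were common for Cd24a (203 genes), Pecam1 (201), Nedd9 (85) and Selplg (51), and fewer for Sdc4 (14) and Cd69 (4). Cd44, at its low counts, had 0 within 0.1, and its nearest were Gm15433 (0.40) and Tle5 (0.41).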

How the data were processed

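RNA sequencing counts were analysed from 6 libraries, 3 per group. The authors deposited raw counts by Entrez identifier, with gene lengths. Per the submitters' processing notes, CASAVA 1.8.2, featureCounts and build mm9 were used. Not given in the sources used here were aligner, annotation and strandedness. Per-library files held counts identical to the series table in 6 of 6 cases. Of 26286 identifiers, 24176 matched a RefSeq symbol and 2110 did not.

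The filter filterByExpr (minimum count 10) kept 12275 genes with 99.93% of counts. Counts were scaled by TMM (factors 0.991 to 1.01), which gives CPM, and RPKM is CPM per kilobase of the deposited length. The comparison used edgeR 4.0.16 (quasi-likelihood F-test, R 4.3.3) without covariates and with Benjamini-Hochberg adjustment over all genes tested. The SE is the log2 fold change divided by the square root of F, and the 95% interval uses the test's degrees of freedom. Scripts were tested on simulated data.

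Alternatives were scaling by total counts, upper quartiles or DESeq2 size factors, no filter, a filter of 1 CPM in 3 libraries, limma 3.58.1 voom, DESeq2 1.42.0, the replicate block and leaving out each library. The 7 genes, 8 pathway lists (113 of 114 entries in the table) and 8 marker lists were chosen with earlier results of these data known. Named were the 7 genes, Pax5, in each pathway list the 3 called genes with the smallest p and every gene behind a count of 5 or fewer, the leading genes of each marker list, and the 2 nearest profiles. Further genes named, Src and S1pr3 among them, and the promoter motifs were picked with values in view. Results for some genes are not reported here.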

Additional observations from a re-analysis of the deposited data

How the results depend on the processing

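Nedd9, Sdc4, Cd69, Pecam1 and Cd24a kept direction and call under every alternative run. The log2 fold change was 0.86 to 0.92 for Nedd9, 1.17 to 1.37 for Sdc4, 1.74 to 1.91 for Cd69, 0.52 to 0.66 for Pecam1 and −0.94 to −0.83 for Cd24a. Leaving out each library in turn gave 1.34 to 2.29 for Cd44 and 0.15 to 0.32 for Selplg. Cd44 was not tested at 1 CPM in 3 libraries, so that 4 of the 7 genes were higher there. With the replicate block Selplg was called higher at 0.26 (edgeR adjusted p = 0.0203). Same-numbered libraries deviated together for replicates 1 and 2 (correlation across genes 0.31 and 0.29) but not for replicate 3 (−0.04). Dox replicate 2 against untreated replicate 1 gave −0.28, and dox replicate 1 against untreated replicate 2 gave −0.34. These values do not decide whether the numbers are pairs. The labels do not state what the numbers share, so the main fit was run without the block. The number lower was 2 in place of 1 in the Cas list (with Src) and in the S1P list (with S1pr3) with no low-count filter, under the replicate block and in the DESeq2 test, and 1 to 2 in both with a library left out. With a library left out, 1 to 2 genes were lower in the selectin list and 2 to 5 higher in the sheddase list. The causes were not tested. Counts over all genes were 2693 to 3534 higher and 2791 to 3441 lower over the alternatives. Depth limits Cd44 above all, at 5 to 63 counts per library.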

Other observations

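Among the genes tested with a mean of at least 5 CPM, 49 spanned at least 2-fold within each group. Of these, 26 had the same order of replicate numbers in both groups, 22 of them with replicate 1 highest. This count was made with values in view, and the labels do not state what the replicate numbers share. The number to expect from groups of unrelated order was not computed.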
